A study of Mus musculus with 19 samples.

Results

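Skeletal muscle sarcomere and calcium handling genes were followed through 19 RNA sequencing libraries of mouse plantaris tendon. The set holds 40 genes named by symbol, out of 24972 genes listed in the deposited table, and all 40 were listed and passed the filter on low values. They were chosen by function and with earlier results of these data known, not by a cut on their values. By role they are 8 thin filament genes, 6 thick filament and light chain genes, 12 genes of titin, the M-band and the Z-disc, 9 genes of calcium release, storage and uptake, and 5 genes of energy supply, oxygen storage and translation. Most are genes of the contracting fibre and not of tendon cells, so their sum is used here as a measure of muscle RNA carried with the tendon.

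The plantaris tendon is the tendon of a calf muscle. The study followed it through a growth stimulus in mice with or without scleraxis (Scx), a transcription factor of tendon cells. The control group held 3 libraries from Scx+ mice that had no growth stimulus and no tamoxifen. The other 16 libraries came from tamoxifen-treated mice, 4 each from Scx+ and Scx- mice at day 7 and at day 14 of the stimulus. The study's title calls the deletion of scleraxis targeted, and the labels name neither the alleles, the Cre driver, the kind of stimulus, the age, the sex nor whether each library is 1 animal. P-values therefore measure the spread between libraries, which may be technical. In the 4 comparisons with control, stimulus and tamoxifen cannot be told apart, and for Scx- the genotype is a further difference, there being no Scx- mice without stimulus.

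The deposited values are a scaled signal that is not whole, so read depth cannot be read from them. The signal summed to 67809 to 79768 kilounits per control library (1 kilounit is 1000 units of the deposited scale) and to 36578 to 48474 in the stimulated ones. Scx lay at 317 to 589 units in control, 2082 to 7993 in stimulated Scx+ libraries and at 1.65 to 17.1 in Scx- libraries, which checks the genotype labels. The 10 tendon markers looked at (Scx, Mkx, Tnmd, Fmod, Col1a1, Col1a2, Thbs4, Comp, Kera, Chad) took 0.280 to 0.921% of the signal in control libraries and 1.19 to 9.86% in stimulated ones. All 10 were above 0 in every library.

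A sarcomere is the repeating unit of the muscle fibre, in which thick filaments of myosin pull on thin filaments of actin. On the thin filament, troponin C binds calcium, troponin I holds the filament off and troponin T ties both to tropomyosin. Calcium leaves the sarcoplasmic reticulum through the ryanodine receptor when the membrane is depolarized, is held there by calsequestrin, and is pumped back by SERCA. Slow and fast fibres use different genes for many of these parts, and developing or regenerating fibres express several of the slow type.

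Promoter sequences were looked up for the 40 genes, because most of their levels moved together between libraries. RefSeq's table for GRCm38.p6 held 29 of the 40, with 35 windows of 250 bases before to 50 after a start site. The E-box CANNTG, bound by myogenic factors among many others, was found in 85.7% of these windows and in 72.3% of all 32851 windows, both strands searched. Its form CAGCTG, counted within the former as well, was found in 51.4% against 16.3%, the MEF2 site in 14.3% against 3.19% and the CArG box in 14.3% against 1.63%. CATTCC, the M-CAT motif, was found in 20% against 14.7%, and TATAAA in 11.4% against 13.6%. A match is a description of letters and shows no bound factor.

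Promoters are shown of 4 genes that the results turn on, each as the 250 bases before a RefSeq start site on GRCm38.p6, 5′ to 3′ on the strand of the gene. Acta1 (chr8:123894776-123895025, minus strand) encodes skeletal alpha-actin and had the highest signal per kilobase of the set. Tnnc2 (chr2:164779735-164779984, minus strand) encodes fast troponin C, Tnnc1 (chr14:31208062-31208311, plus strand) its slow and cardiac counterpart, and Tnni1 (chr1:135799171-135799420, plus strand, the outer of 2 RefSeq windows) slow troponin I. Capitals mark CAGCTG, MEF2 or CArG matches: Acta1 holds 1 CAGCTG and 1 CArG box, Tnni1 holds 1 CAGCTG, and Tnnc2 and Tnnc1 hold none of the 3 in these windows.
Acta1: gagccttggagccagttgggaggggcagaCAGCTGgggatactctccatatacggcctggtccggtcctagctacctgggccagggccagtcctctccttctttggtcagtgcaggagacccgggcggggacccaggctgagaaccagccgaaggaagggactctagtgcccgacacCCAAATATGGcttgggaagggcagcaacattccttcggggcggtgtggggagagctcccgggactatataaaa
Tnni1: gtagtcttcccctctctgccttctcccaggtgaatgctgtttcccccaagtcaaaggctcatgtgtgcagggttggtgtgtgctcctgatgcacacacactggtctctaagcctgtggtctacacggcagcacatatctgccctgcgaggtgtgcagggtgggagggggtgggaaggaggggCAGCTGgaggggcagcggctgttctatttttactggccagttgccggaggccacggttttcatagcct
Tnnc1: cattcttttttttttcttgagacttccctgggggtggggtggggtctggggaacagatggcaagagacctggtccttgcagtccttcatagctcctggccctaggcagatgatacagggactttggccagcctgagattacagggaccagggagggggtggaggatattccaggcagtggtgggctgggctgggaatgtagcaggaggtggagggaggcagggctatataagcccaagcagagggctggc
Tnnc2: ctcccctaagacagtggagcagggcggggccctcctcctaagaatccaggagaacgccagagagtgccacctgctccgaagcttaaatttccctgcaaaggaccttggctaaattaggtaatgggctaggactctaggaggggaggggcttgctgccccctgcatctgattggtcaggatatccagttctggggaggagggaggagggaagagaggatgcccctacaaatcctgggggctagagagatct

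Muscle transcripts made up much of control libraries and far less of most stimulated ones, with a wide spread between libraries of 1 group. The 40 genes took 22.1, 24.8 and 22.4% of the signal in the 3 controls. At day 7 they took 0.251, 0.0403, 2.46 and 2.41% in the 4 Scx+ libraries and 2.66, 4.04, 6.59 and 0.425% in the 4 Scx- libraries. At day 14 the shares were 0.280, 4.93, 2.52 and 7.53% in Scx+ and 14.3, 16.8, 4.22 and 4.09% in Scx-. Every stimulated library lay below every control, and the Scx+ and Scx- ranges overlapped at both days. Group means were 23.1 ± 1.46% (SD, n = 3), 1.29 ± 1.32% and 3.43 ± 2.58% for Scx+ and Scx- at day 7, and 3.81 ± 3.12% and 9.86 ± 6.66% at day 14 (SD, n = 4 each). The SD was larger than the mean in Scx+ at day 7. In a share of bulk signal, fewer muscle fibres, less RNA per fibre and more RNA from other cells cannot be told apart.

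**Figure D1:**
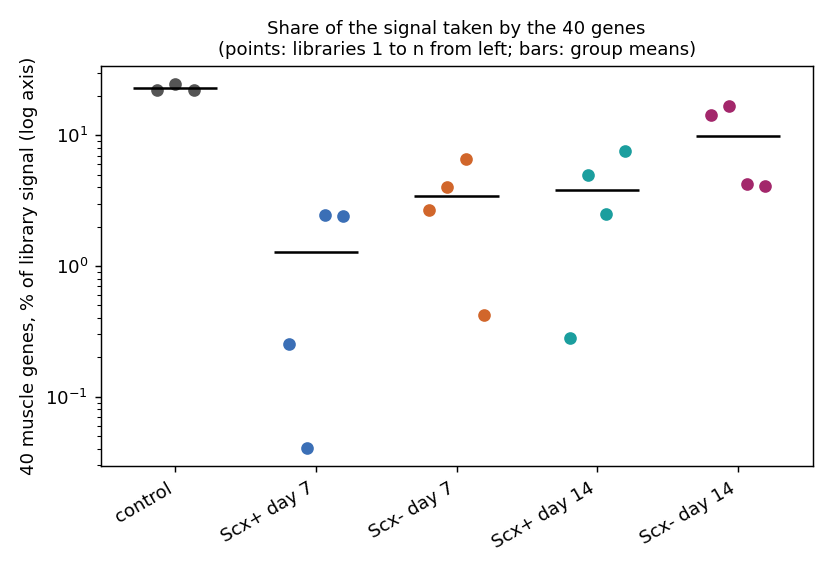
Share of each library's signal taken by the 40 genes, in percent on a log axis, with 1 point per library and a bar at each group mean. The 3 controls sit between 22.1 and 24.8%, above all 16 stimulated libraries, which range from 0.0403 to 16.8%.

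Markers of other tissues were read beside this share. The 39 fibre genes outside the set took 9.41 to 13.0% in controls and 0.0259 to 8.99% in stimulated libraries. The 8 adipocyte markers took 0.179 to 0.244% in controls and 0.00671 to 0.0839% in stimulated libraries, and all 8 were called lower in each of the 4 comparisons with control. The summed share of the tendon markers was higher in every stimulated library than in controls, as given above, but its genes were divided: of 10, 1 fell and 6 rose at Scx+ day 7, 3 and 4 at Scx- day 7, 0 and 6 at Scx+ day 14, and 2 and 4 at Scx- day 14. Col1a1, Col1a2, Mkx and Thbs4 rose in all 4, and Chad, Scx and, at day 7, Fmod were those that fell in Scx-. The 7 endothelial markers took 0.0208 to 0.0572% in controls and 0.0210 to 0.0706% in stimulated libraries, with 1 called lower, at Scx- day 7. Of 6 markers of the neuromuscular junction and nerve, 2, 3, 2 and 1 fell in the same order of groups, and 0 rose. Among all 16619 tested genes, 27.5%, 25.9%, 25% and 18.3% fell in that order (limma, adjusted p under 0.05). The shares that rose were 33.8%, 32.3%, 30.9% and 25.5%. The called counts of each marker list are to be read beside these shares. The 6 cardiac markers summed to 6.78e-05 to 0.000559% in any library. Of them Myl7, the atrial light chain, was listed at 0 to 3.76 units, Myh6, the cardiac myosin, at 0 to 31.2 and Nppa, the atrial natriuretic peptide, at 0 to 18.9. Tnni3, cardiac troponin I, and Mybpc3, the cardiac myosin binding protein C, rose in all 4 comparisons with control, from 18 to 72.2 units in controls to 71.5 to 181 for Tnni3 and from 0 in all 3 controls to 2.62 to 43.2 for Mybpc3, and Myh6 fell in all but Scx- day 14. The part of these other tissues in the results below was not tested.

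Against control, most of the 40 genes fell in 3 of the 4 stimulated groups, while slow troponins rose in all 4. At Scx+ day 7, 31 of 40 fell and 3 rose, where 27.5% and 33.8% of all 16619 tested genes did (limma, adjusted p under 0.05). At Scx- day 7, 23 fell and 4 rose, against 25.9% and 32.3% of all genes. At Scx+ day 14 the counts were 23 and 3, against 25% and 30.9%. At Scx- day 14, 0 fell and 3 rose, against 18.3% and 25.5%. There 8 of 40 had an unadjusted p under 0.05, where 8646 of all 16619 tested genes did. In a fit of Scx- day 14 and control alone, 17 of 40 passed, lower and higher together. The share of all genes in that fit is not given here. The 0 lower in the shared fit thus does not show unchanged levels. The median log2 fold change of the 40 genes was -5.97, -3.73, -3.66 and -1.81 in that order, beside 0.18, 0.14, 0.15 and 0.12 over all tested genes. These 4 comparisons share the 3 control libraries.

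Counts of genes whose libraries did not overlap with control describe the libraries one by one. Without overlap, 33 of 40 lay lower at Scx+ day 7, 28 at Scx- day 7, 30 at Scx+ day 14 and 24 at Scx- day 14. Among all tested genes 28.9%, 27.3%, 25% and 17.4% did. On the higher side the counts were 2, 4, 4 and 5, against 33.4%, 30.8%, 26.9% and 20.7% of all genes.

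Single libraries set some of these counts. At Scx+ day 14 there were 14 lower and 3 higher without its replicate 1, 14 lower and 3 higher without control replicate 2 and 14 lower and 3 higher without control replicate 3. At Scx- day 7 there were 14 lower and 4 higher without its replicate 4 and 15 lower and 4 higher without control replicate 3. At Scx- day 14 there were 0 lower and 5 higher without control replicate 3, 2 lower and 5 higher without Scx+ day 7 replicate 2, 1 lower and 4 higher without Scx- day 7 replicate 4 and 3 lower and 3 higher without Scx+ day 14 replicate 1. On the deposited scale that comparison had 1 lower and 3 higher, the lower one being Pygm, while all tested genes split into 5128 lower and 2783 higher in place of 3047 and 4239. With library totals they split into 1360 and 7215, so the background of that comparison turns direction with the scaling. Scaling by library totals moved the median of all genes in the 4 comparisons to 0.580 to 0.833, and at Scx+ day 7 all tested genes then split into 2452 lower and 8978 higher, in place of 4575 and 5616.

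**Figure D2:**
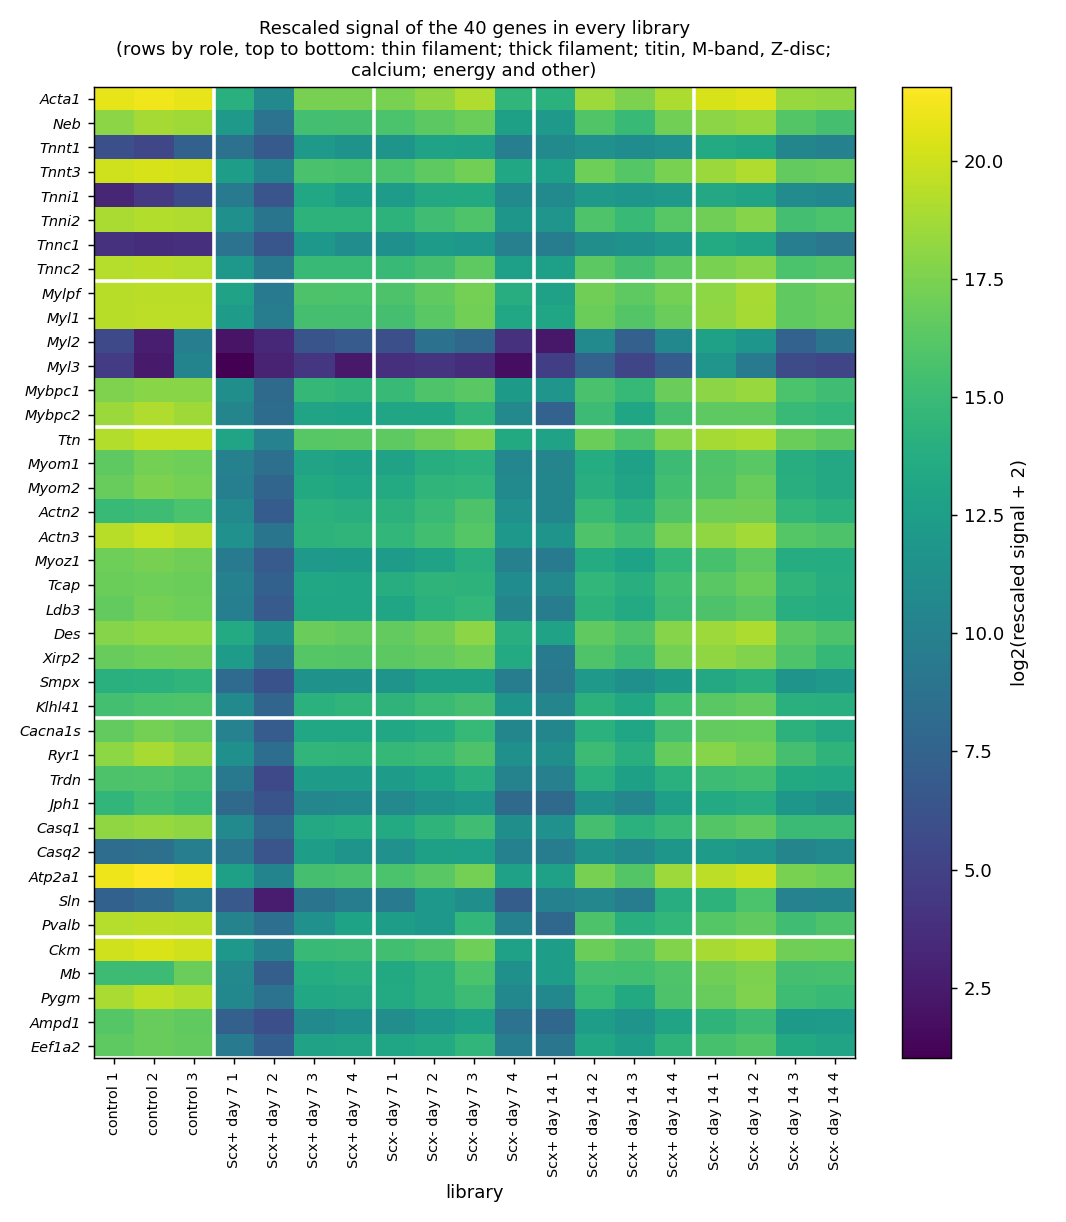
Rescaled signal of the 40 genes in the 19 libraries, as log2 of the value plus 2, with genes in rows by role and libraries in columns by group. Most rows are bright in the 3 controls and dark in Scx+ day 7 replicates 1 and 2, and Tnnt1, Tnni1, Tnnc1, Casq2 and Sln are darker in controls than in most stimulated libraries.

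Thin filament genes split by fibre type. Of the 8, 5 fell and 3 rose at Scx+ day 7, 3 and 3 at Scx- day 7, 3 and 3 at Scx+ day 14, and 0 and 3 at Scx- day 14. Acta1, which forms the thin filament itself, was at 1862, 2279.9 and 1799 kilounits in the controls. It was at 16.8, 1.86, 168 and 163 kilounits in Scx+ and 172, 294, 578 and 24.4 kilounits in Scx- at day 7, and at 18, 385, 188 and 526 in Scx+ and 1305, 1647, 348 and 318 kilounits in Scx- at day 14. All 16 stimulated libraries lay below the controls, with Scx- day 14 replicates 1 and 2 the nearest. The log2 fold change against control was -6.02 ± 1.5 (SE) at Scx+ day 7 (adjusted p = 0.00269), and -3.59, -3.61 and -1.50 at Scx- day 7, Scx+ day 14 and Scx- day 14 (adjusted p = 0.0508, 0.0516 and 0.437). Without Scx+ day 7 replicate 2, which is in neither comparison but adds to the shared spread, the adjusted p was 0.0185 for Scx- day 7 and 0.0191 for Scx+ day 14. Per kilobase of annotated exon, Acta1 was the highest of the 40 genes in all 5 groups, at 1289 ± 170.2 kilounits in the controls (SD, n = 3).

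The split ran through troponin I. Tnni2, fast troponin I, was at 509, 605 and 555 kilounits in the controls, 2.58, 0.506, 20.4 and 20.7 kilounits in Scx+ and 20.5, 38.5, 61.1 and 3.85 kilounits in Scx- at day 7, and 3.35, 59.8, 32.3 and 78.3 in Scx+ and 145, 239, 43.7 and 54.6 kilounits in Scx- at day 14. Tnni1, slow troponin I, also the form of developing fibres, was at only 7.36, 18.9 and 47.4 units in the controls. It was at 744, 84.4, 9564 and 5485 units in Scx+ and 5341, 10772, 11730.1 and 1811 in Scx- at day 7, and at 1856, 4419.7, 3653 and 4170.2 in Scx+ and 10716, 8205, 1939 and 1588 in Scx- at day 14. Every stimulated library was below the controls for Tnni2 and above them for Tnni1. Tnni1 rose by a log2 fold change of 5.99 ± 1.27, 8.12 ± 1.27, 7.29 ± 1.27 and 7.57 ± 1.27 (SE) at Scx+ day 7, Scx- day 7, Scx+ day 14 and Scx- day 14 (adjusted p = 0.000818, 7.18e-05, 0.000211 and 0.000297). Tnni2 fell, at log2 fold changes of -6.84, -4.74 and -4.38 in the first 3 (adjusted p = 0.000369, 0.00618 and 0.0107), and its value of -2.54 at Scx- day 14 did not pass (adjusted p = 0.13). On GRCm38 Tnni1 lies at chr1:135779434-135810989 and Tnni2 at chr7:142441808-142444410, both on the plus strand, with no annotated gene on the opposite strand. Per kilobase of annotated exon, Tnni1 ranked 40 of 40 in the controls and 24 in Scx+ at day 7, and 37 in Scx- at day 14.

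Troponin C and troponin T repeated the split. Tnnc2, fast troponin C, was at 626, 712 and 641 kilounits in the controls, 4.02, 0.643, 31.3 and 31.1 kilounits in Scx+ and 31.3, 45.9, 88.8 and 6.41 kilounits in Scx- at day 7, and 6.19, 88.0, 46.5 and 83.4 in Scx+ and 173, 239.5, 55.2 and 67.8 kilounits in Scx- at day 14. Tnnc1, slow and cardiac troponin C, was at only 12.9, 10.6 and 11.4 units in the controls. It was at 444, 89.3, 4114 and 2132 units in Scx+ and 2542, 5439, 4071 and 972 in Scx- at day 7, and at 784, 2340.0, 2894 and 4324 in Scx+ and 12446, 8250.4, 894 and 568 in Scx- at day 14. All 16 stimulated libraries lay above the controls for Tnnc1 and below them for Tnnc2. On the opposite strand Tnnc1 overlaps the gene Nisch and Tnnc2 the gene Ube2c, and strand rules are not given in the sources used here. The log2 fold change of Tnnc1 against control was 5.83 ± 1.23, 7.64 ± 1.23, 7.33 ± 1.23 and 7.63 ± 1.23 (SE; adjusted p = 0.000769, 8.95e-05, 0.000153 and 0.000212, in the order of groups above). Tnnc2 fell in the first 3 groups, at -6.54, -4.45 and -4.11 (adjusted p = 0.000382, 0.00709 and 0.0122, the last 0.0511 with array quality weights).

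Tnnt3, fast troponin T, was at 1098, 1305 and 1153 kilounits in the controls, 5.84, 1.27, 51.6 and 49.9 kilounits in Scx+ and 54.2, 89.8, 147 and 10.4 kilounits in Scx- at day 7, and 6.33, 134, 71.4 and 181 in Scx+ and 363, 563, 104 and 114 kilounits in Scx- at day 14. Tnnt1, slow troponin T, was at only 64.4, 40.2 and 168 units in the controls. It was at 396, 110.0, 4301 and 2797 units in Scx+ and 3148, 7329.6, 6906 and 871 in Scx- at day 7, and at 1714, 2654, 2009.8 and 2675 in Scx+ and 12460.1, 8556, 1397 and 1022 in Scx- at day 14. Among the stimulated libraries, Scx+ day 7 replicate 2 alone overlapped with the controls for Tnnt1, and no stimulated library did for Tnnt3. By position, Tnnt3 shares its span with the opposite-strand gene Prr33, and Tnnt1 has no annotated gene on the opposite strand. Tnnt1 rose by 3.45 ± 1.18, 5.46 ± 1.18, 4.83 ± 1.18 and 5.49 ± 1.18 (SE; adjusted p = 0.0186, 0.00102, 0.00272 and 0.0017). The call at Scx+ day 7 was lost without control replicate 2 (adjusted p = 0.07), Scx+ day 7 replicate 3 (0.0596) or replicate 4 (0.0557), and with a fit of these groups alone (0.0649). Tnnt3 fell, at log2 fold changes of -6.65, -4.50 and -4.36 in the first 3 groups (adjusted p = 0.000527, 0.00934 and 0.012), and its -2.41 at Scx- day 14 did not pass (adjusted p = 0.155). The remaining thin filament gene is Neb, the nebulin ruler of filament length, which fell at Scx+ day 7 and passed in no other group.

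**Figure D3:**
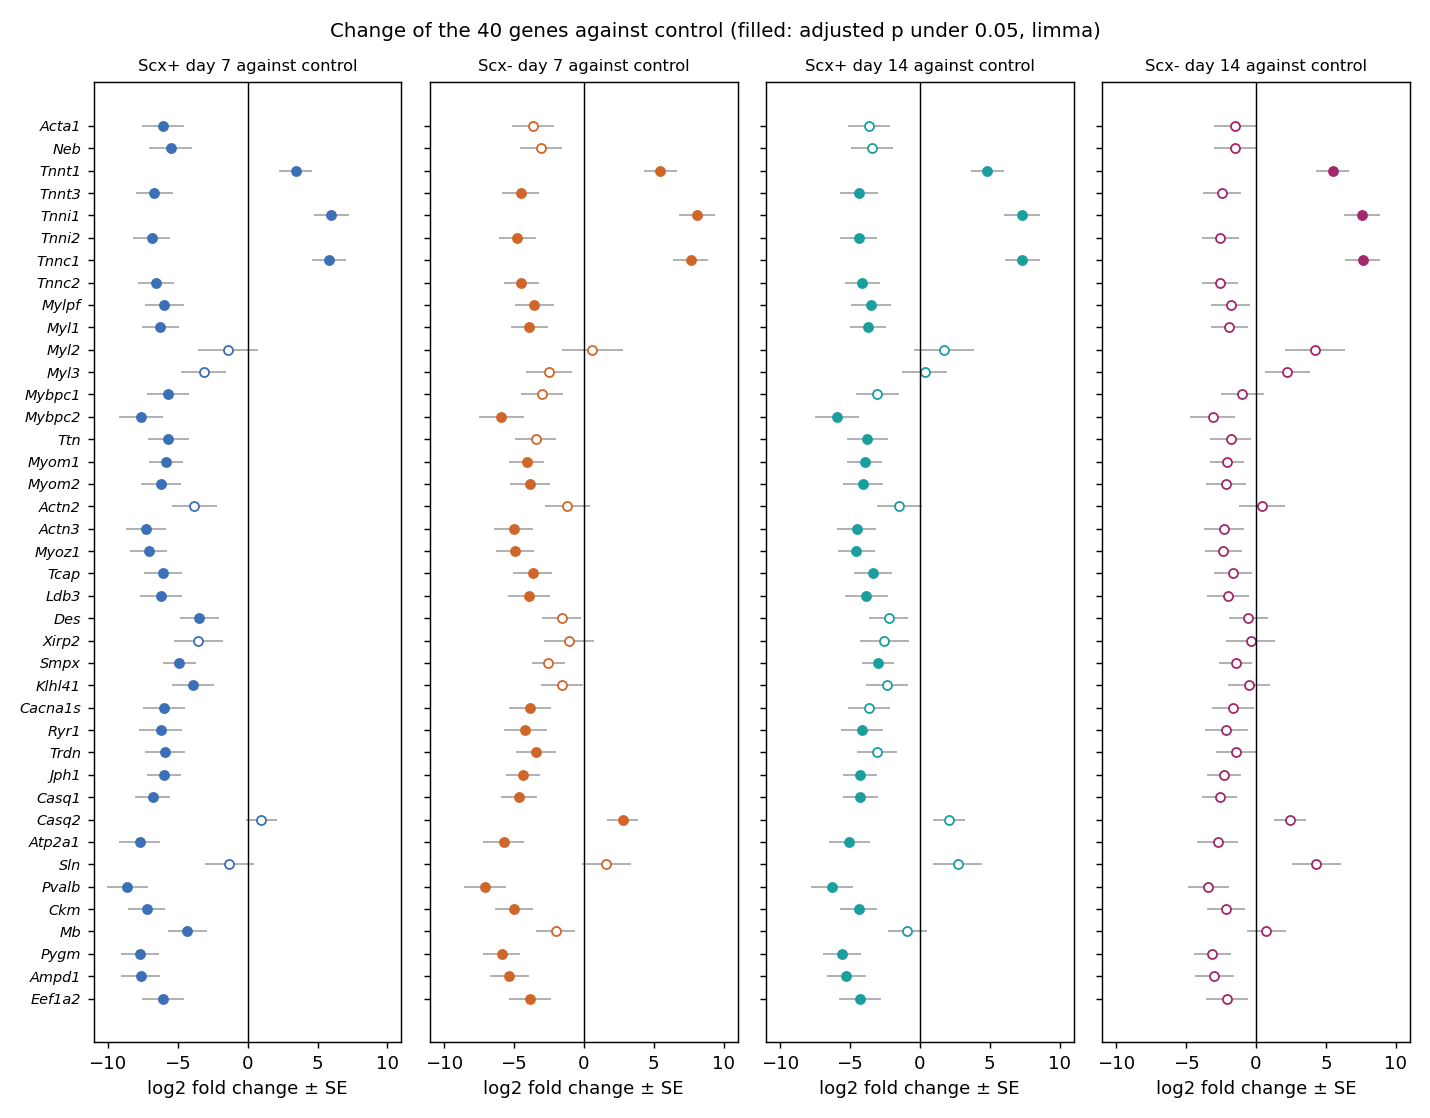
Log2 fold change of each of the 40 genes against control in the 4 stimulated groups, with bars of 1 SE and filled points where the adjusted p was under 0.05 (limma). Tnnt1, Tnni1 and Tnnc1 lie to the right of 0 with filled points in all 4 panels, and the filled points on the left number 31, 23, 23 and 0 from left to right.

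Among thick filament genes, 4, 3, 3 and 0 of 6 fell at Scx+ day 7, Scx- day 7, Scx+ day 14 and Scx- day 14, and 0 rose. Mylpf, the fast regulatory light chain of myosin, was at 659, 699 and 707 kilounits in the controls. It was at 7.21, 0.657, 58.4 and 56.4 kilounits in Scx+ and 58.1, 93.8, 162 and 14.7 kilounits in Scx- at day 7, and at 6.90, 143, 91.0 and 158 in Scx+ and 278, 471, 93.3 and 120.0 kilounits in Scx- at day 14. All stimulated libraries were below the controls, and at Scx+ day 7 the log2 fold change was -5.94 ± 1.4 (SE, adjusted p = 0.00181). Mylpf was also called lower at Scx- day 7 and Scx+ day 14. Both calls were lost with library totals, the replicate block or array quality weights, and without any 1 control (limma, adjusted p = 0.0612 to 0.146), among other settings. Myl1, the fast essential light chain, followed Mylpf closely, at 659.8, 770.4 and 747 kilounits in the controls and 297, 453, 97.4 and 111 kilounits in Scx- at day 14. Its other libraries were at 5.26, 0.780, 46.5 and 46.2 kilounits in Scx+ and 45.8, 80.0, 151 and 10.2 kilounits in Scx- at day 7, and 9.07, 129, 68.1 and 120.4 kilounits in Scx+ at day 14.

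The slow light chains did not follow the slow troponins in these calls. Myl2, the slow and ventricular regulatory light chain, was at 44.2, 4.73 and 879 units in the controls, 2.13, 7.62, 78.7 and 117 in Scx+ and 62.7, 405, 251 and 13.3 in Scx- at day 7, and 2.92, 1879, 154 and 1565 in Scx+ and 7050.3, 3625, 172 and 486 in Scx- at day 14. Myl3, the slow essential light chain, was at 23.9, 3.55 and 1218 units in the controls, 0, 5.99, 16.7 and 3.38 in Scx+ and 11.6, 15.8, 10.7 and 1.33 in Scx- at day 7, and 27.0, 174, 38.1 and 124 in Scx+ and 3482, 689, 51.1 and 36.9 in Scx- at day 14. Control replicate 3 was the highest control for both, and the stimulated groups overlapped with controls in every case. Neither gene passed in any of the 9 comparisons. The largest log2 difference of either was that of Myl3 between day 14 and day 7 in Scx-, where the 4 later libraries lay above the 4 earlier ones, at 4.72 ± 1.5 (SE, adjusted p = 0.0765). That value passed without control replicate 3 (adjusted p = 0.0286), Scx- day 14 replicate 3 (0.0496) or replicate 4 (0.0349).

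Myosin binding proteins C sit on the thick filament and tune contraction. Mybpc1, the slow form, was at 201, 248 and 242 kilounits in the controls, 2.48, 0.268, 26.5 and 22.6 in Scx+ and 30.4, 62.8, 79.1 and 4.75 kilounits in Scx- at day 7, and 3.40, 52.6, 27.7 and 122 in Scx+ and 258, 342, 54.6 and 39.98 kilounits in Scx- at day 14. Mybpc2, the fast form, was at 359, 574 and 406 kilounits in the controls, 1.33, 0.310, 8.28 and 7.68 in Scx+ and 8.80, 8.78, 23.1 and 1.68 kilounits in Scx- at day 7, and 0.177, 35.6, 9.11 and 45.8 in Scx+ and 90.6, 91.2, 31.4 and 25.8 kilounits in Scx- at day 14. Scx- day 14 replicates 1 and 2 reached or passed the controls for Mybpc1 and stayed far below them for Mybpc2. Mybpc2 fell, at log2 fold changes of -7.59, -5.88 and -5.93 at Scx+ day 7, Scx- day 7 and Scx+ day 14 (adjusted p = 0.000716, 0.00508 and 0.00518). At Scx- day 14 its -3.10 did not pass (adjusted p = 0.124, and 0.0297 without Scx+ day 14 replicate 1).

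Of 12 genes of titin, the M-band and the Z-disc, 10 fell at Scx+ day 7, 6 at Scx- day 7, 8 at Scx+ day 14 and 0 at Scx- day 14, and 0 rose. Ttn, the giant spring that spans each sarcomere from Z-disc to M-band, was at 606, 907 and 899.7 kilounits in the controls. It was at 8.39, 1.12, 78.0 and 79.2 kilounits in Scx+ and 90.4, 138, 211 and 11.4 kilounits in Scx- at day 7, and at 7.38, 125, 56.3 and 225 in Scx+ and 462, 536, 126 and 84.8 kilounits in Scx- at day 14. No stimulated library reached the controls, and at Scx+ day 7 the log2 fold change was -5.67 ± 1.46 (SE, adjusted p = 0.0033). Ttn also passed at Scx+ day 14, a call lost without any 1 control or without replicates 1 or 3 of that group (limma, adjusted p = 0.0621 to 0.118), among other settings. The crosslinkers of the M-band, Myom1 and Myom2, and Myoz1, Tcap and Ldb3 of the Z-disc were at -7.06 to -5.82 at Scx+ day 7. Each of these 5 passed in the same 3 groups, Scx+ day 7, Scx- day 7 and Scx+ day 14.

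Actinins crosslink actin at the Z-disc, and their 2 genes diverged. Actn3, the form of fast fibres, was at 674, 918 and 695 kilounits in the controls, 2.79, 0.504, 20.5 and 22.0 in Scx+ and 24.9, 40.6, 73.5 and 4.08 kilounits in Scx- at day 7, and 3.23, 61.0, 37.7 and 157 in Scx+ and 299, 420.0, 74.6 and 59.2 kilounits in Scx- at day 14. Actn2, found in all fibres, was at 29.3, 36.5 and 55.6 kilounits in the controls, 1.72, 0.122, 18 and 16.4 in Scx+ and 18.7, 31.4, 56.7 and 2.73 kilounits in Scx- at day 7, and 1.37, 30.8, 15.7 and 60.2 in Scx+ and 130.5, 139.7, 24.5 and 17.6 kilounits in Scx- at day 14. Actn3 stayed below the controls in all 16 libraries and fell in 3 groups, at -7.23, -5.01 and -4.52 (adjusted p = 0.000424, 0.00691 and 0.0135). Actn2 overlapped with the controls in 3 of 4 groups and passed in none, with values from -3.79 to 0.44; at Scx+ day 7 its adjusted p was 0.0539, and 0.0248 without that group's replicate 3.

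Xirp2, a protein of the Z-disc region that binds actin, and desmin (Des), the intermediate filament of muscle, were among the members nearest to control levels. Xirp2 was at 110.4, 135 and 138 kilounits in the controls, 4.89, 0.639, 74.1 and 67.2 in Scx+ and 84.3, 102, 135 and 12.1 kilounits in Scx- at day 7, and 0.717, 62.2, 32.6 and 161 in Scx+ and 284, 207, 60.3 and 26.0 kilounits in Scx- at day 14. Des was at 239.6, 273 and 279 kilounits in the controls, 12.1, 2.38, 117 and 101 in Scx+ and 103, 140.4, 262 and 16.2 kilounits in Scx- at day 7, and 7.58, 93.4, 62.7 and 231 in Scx+ and 388, 529, 86.0 and 59.1 kilounits in Scx- at day 14. Xirp2 passed in none of the 4 comparisons with control (-3.51, -1.05, -2.53 and -0.38). Des was called lower at Scx+ day 7 (-3.44 ± 1.39, SE, adjusted p = 0.0418), a call lost without any 1 of the 3 controls, Scx+ day 7 replicates 1 or 2, or Scx- day 7 replicate 1 (adjusted p = 0.0509 to 0.129). It was also lost with library totals, the replicate block, a fit of these groups alone and array quality weights (adjusted p = 0.0698 to 0.24). Smooth muscle and mural cells also express desmin, and 9 markers of them summed to 0.0370 to 0.0597% of the signal in controls and 0.0383 to 0.145% in stimulated libraries. Their part in the level of Des was not tested. Klhl41 and Smpx, a stabilizer of nebulin and a stretch-responsive protein, fell at Scx+ day 7, and Smpx at Scx+ day 14 as well.

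Calcium handling genes held the lowest log2 fold change of the set, that of Pvalb, and 1 gene that rose, Casq2. Of 9, 7 fell at Scx+ day 7, 7 at Scx- day 7, 5 at Scx+ day 14 and 0 at Scx- day 14, and 1 rose, at Scx- day 7. Pvalb, the calcium buffer of fast fibres, was at 623, 714 and 668 kilounits in the controls. It was at 1.20, 0.358, 2.75 and 7.82 kilounits in Scx+ and 5.93, 4.01, 24.9 and 1.05 kilounits in Scx- at day 7, and at 0.246, 56.9, 16.1 and 25.5 in Scx+ and 72.8, 96.0, 38.9 and 59.0 kilounits in Scx- at day 14. No stimulated library came near the controls. Pvalb had the lowest log2 fold change of the 40 genes in all 4 comparisons with control, at -8.58, -7.06 and -6.26 at Scx+ day 7, Scx- day 7 and Scx+ day 14 (adjusted p = 0.000154, 0.000875 and 0.00236). At Scx- day 14 its -3.40 ± 1.49 (SE) did not pass (adjusted p = 0.0761), though the 4 libraries lay below the 3 controls; the adjusted p was 0.0113 without Scx+ day 14 replicate 1. It lies at chr15:78191114-78206400 on the minus strand.

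Atp2a1, which encodes the fast SERCA pump, had the highest signal of this role, at 2152, 3116 and 2231 kilounits in the controls. It was at 6.69, 1.22, 45.7 and 52.1 kilounits in Scx+ and 56.3, 80.4, 157 and 6.84 kilounits in Scx- at day 7, and at 7.15, 167, 67.5 and 396 in Scx+ and 735, 1059.9, 182 and 133 kilounits in Scx- at day 14. The control mean was 94.6 times that of Scx+ at day 7 and 4.74 times that of Scx- at day 14. It fell, at log2 fold changes of -7.70, -5.71 and -5.03 in the first 3 groups (adjusted p = 0.00032, 0.00357 and 0.00856), and its -2.73 at Scx- day 14 did not pass (adjusted p = 0.141). Genes of the release unit lay between -5.88 and -6.21 at Scx+ day 7 and all passed there and at Scx- day 7: Ryr1, the release channel, Cacna1s, its voltage sensor, Trdn, the anchor of calsequestrin, and Jph1, which ties surface and reticulum membranes together. At Scx+ day 14, Ryr1 and Jph1 passed and Cacna1s and Trdn did not.

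Calsequestrin has a fast and a slow form as well. Casq1, the fast form, was at 287, 345 and 299 kilounits in the controls, 1.74, 0.248, 10.8 and 13.5 in Scx+ and 12.5, 20.9, 40.3 and 2.43 kilounits in Scx- at day 7, and 2.75, 46.4, 17.6 and 30.9 in Scx+ and 69.7, 92.1, 32.8 and 33.7 kilounits in Scx- at day 14. Casq2, the slow and cardiac form, was at 327, 387 and 868 units in the controls, 545, 81.8, 5719.7 and 3155 in Scx+ and 2653, 6578, 6319 and 1079 in Scx- at day 7, and 840.5, 3017, 1838 and 3823 in Scx+ and 5374, 3471, 1335 and 1855 in Scx- at day 14. Both Scx- groups lay above all controls for Casq2. Casq1 fell, at log2 fold changes of -6.78, -4.61 and -4.25 in the first 3 groups (adjusted p = 0.00027, 0.00547 and 0.00967). Casq2 rose at Scx- day 7, by 2.78 ± 1.12 (SE, adjusted p = 0.0445). That call was lost without control replicates 1 or 2, Scx- day 7 replicates 1, 2 or 3, Scx+ day 14 replicates 2 or 3, or Scx- day 14 replicates 2, 3 or 4 (adjusted p = 0.0501 to 0.115), and with the replicate block (0.0726) or array quality weights (0.0899). The values of 0.99, 2.10 and 2.44 in the other 3 groups did not pass (adjusted p = 0.461, 0.124 and 0.09), and each passed without Scx+ day 7 replicate 2 (0.0461, 0.0407 and 0.0259).

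Sln encodes sarcolipin, a small peptide that slows SERCA. It was at 167, 265 and 716 units in the controls, 107, 4.36, 491 and 849 in Scx+ and 689.8, 4089.8, 2392 and 134 in Scx- at day 7, and 1071, 1455, 859 and 14410.4 in Scx+ and 19692, 56384, 1132 and 1252 in Scx- at day 14. All 8 libraries of day 14 lay above the controls, and 3 of them, Scx+ replicate 4 and Scx- replicates 1 and 2, stood far above the others of their groups. Its log2 fold changes against control were -1.29, 1.62, 2.72 and 4.30 ± 1.75 (SE) at Scx+ day 7, Scx- day 7, Scx+ day 14 and Scx- day 14. None passed, the last with an adjusted p of 0.0576, which was 0.0288 without Scx+ day 7 replicate 2, 0.0419 without Scx- day 14 replicate 3 and 0.046 without replicate 4.

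**Figure D4:**
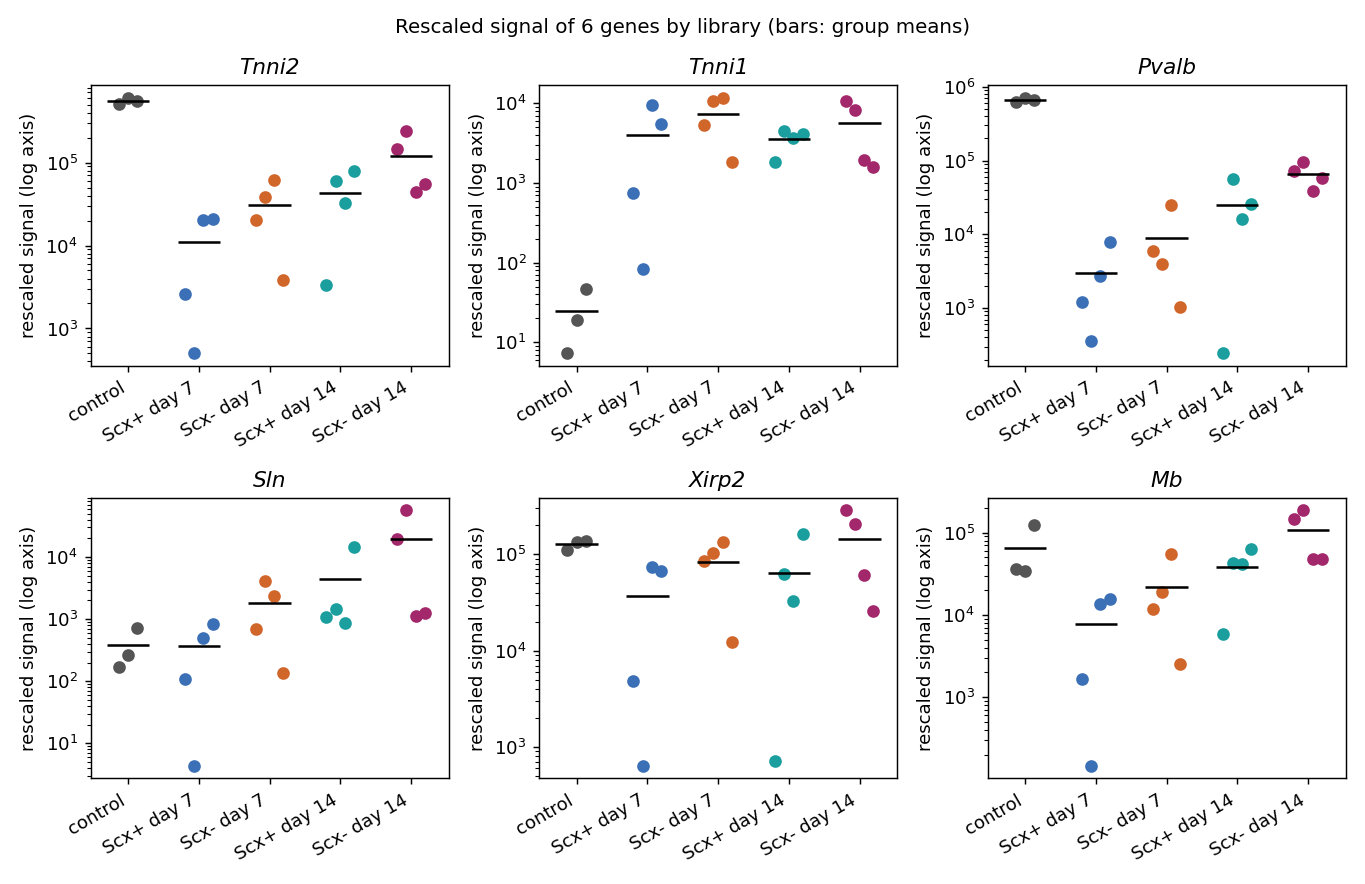
Rescaled signal of 6 genes in each library on log axes, with 1 point per library and a bar at each group mean. Tnni2 and Pvalb are highest in the 3 controls, Tnni1 is lowest there, and for Xirp2 and Mb some stimulated libraries reach the controls.

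Of the 5 genes of energy supply, oxygen storage and translation, 5 fell at Scx+ day 7, 4 at Scx- day 7, 4 at Scx+ day 14 and 0 at Scx- day 14, and 0 rose. Ckm, muscle creatine kinase, was at 1102, 1417 and 1133 kilounits in the controls. It was at 3.91, 1.07, 31.5 and 34.0 kilounits in Scx+ and 42.4, 58.0, 135 and 6.84 kilounits in Scx- at day 7, and at 5.89, 129, 73.8 and 212 in Scx+ and 488, 603, 140.0 and 137 kilounits in Scx- at day 14. It fell, at log2 fold changes of -7.21, -4.96 and -4.36 in the first 3 groups (adjusted p = 0.00027, 0.00509 and 0.0119). Pygm, which breaks down glycogen, was at -7.69, -5.86 and -5.56 in these groups and passed in each. Ampd1, the AMP deaminase of muscle, and Eef1a2, the elongation factor of mature muscle and neurons, fell in the same 3 groups. The Pygm value of -3.12 at Scx- day 14 had an adjusted p of 0.0692, and of 0.042 without Scx+ day 14 replicate 1.

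Myoglobin (Mb), the oxygen store of slow and oxidative fibres, was nearer to control levels. It was at 35.9, 34.2 and 123 kilounits in the controls, 1.68, 0.147, 13.7 and 15.8 in Scx+ and 11.9, 19.2, 54.2 and 2.56 kilounits in Scx- at day 7, and 5.90, 43.3, 41.8 and 62.7 in Scx+ and 145, 186, 47.6 and 48.3 kilounits in Scx- at day 14. Scx- day 14 replicates 1 and 2 exceeded all controls, and control replicate 3 was the highest control. It fell at Scx+ day 7, at -4.29 (adjusted p = 0.0152, and 0.0645 without control replicate 3, 0.188 with array quality weights, which moved the value to -2.71, and 0.0768 with a fit of these groups alone). The values of -2.0, -0.90 and 0.74 elsewhere did not pass.

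For the troponins and calsequestrin, the ratio of the slow to the fast gene shifted toward the slow gene in stimulated libraries. Of each Tnni1 and Tnni2 sum, Tnni1 made up 0.00145, 0.00313 and 0.00854% in the controls. At day 7 it made up 22.4, 14.3, 31.9 and 20.9% in Scx+ and 20.7, 21.8, 16.1 and 32.0% in Scx-, and at day 14 35.6, 6.88, 10.2 and 5.06% in Scx+ and 6.89, 3.32, 4.25 and 2.83% in Scx-. Tnnt1 made up 0.00587, 0.00308 and 0.0146% of its pair in the controls, 6.35, 7.98, 7.69 and 5.31% in Scx+ and 5.49, 7.55, 4.47 and 7.74% in Scx- at day 7, and 21.3, 1.94, 2.74 and 1.46% in Scx+ and 3.32, 1.5, 1.33 and 0.890% in Scx- at day 14. For both pairs Scx+ day 14 replicate 1, a library with a member share of 0.280%, had the highest slow share of all.

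Such ratios hardly move with the scaling of a library, and how reads matching both genes of a pair were counted is not given in the sources used here. Over all 8 pairs, the 16 stimulated libraries were set against the 3 controls by exact two-sided permutation tests on log2 of (slow + 2) over (fast + 2), with p-values adjusted over the 8; this test was added after the values were seen. For 6 pairs no stimulated library overlapped with a control, and the p of 0.00206 was the smallest the design allows (adjusted p = 0.00275). The mean log2 ratio was higher than in controls by 11.87 for Tnni1/Tnni2, 11.52 for Tnnc1/Tnnc2, 9.29 for Tnnt1/Tnnt3 and 6.63 for Casq2/Casq1. It was higher by 3.27 for Actn2/Actn3 and 2.46 for Mybpc1/Mybpc2. Actn2 is found in all fibres, and Mybpc1 already made up 35.9, 30.2 and 37.4% of its pair in the controls. These 2 pairs thus do not read as slow against fast alone. The light chain pairs overlapped with controls: Myl2/Mylpf was higher by 4.99 (exact permutation, adjusted p = 0.0118, and 0.0747 without control replicate 1 or 2), and Myl3/Myl1 by 3.17 (adjusted p = 0.064, and 0.0131 without control replicate 3 and 0.049 without Scx- day 7 replicate 3).

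**Figure D5:**
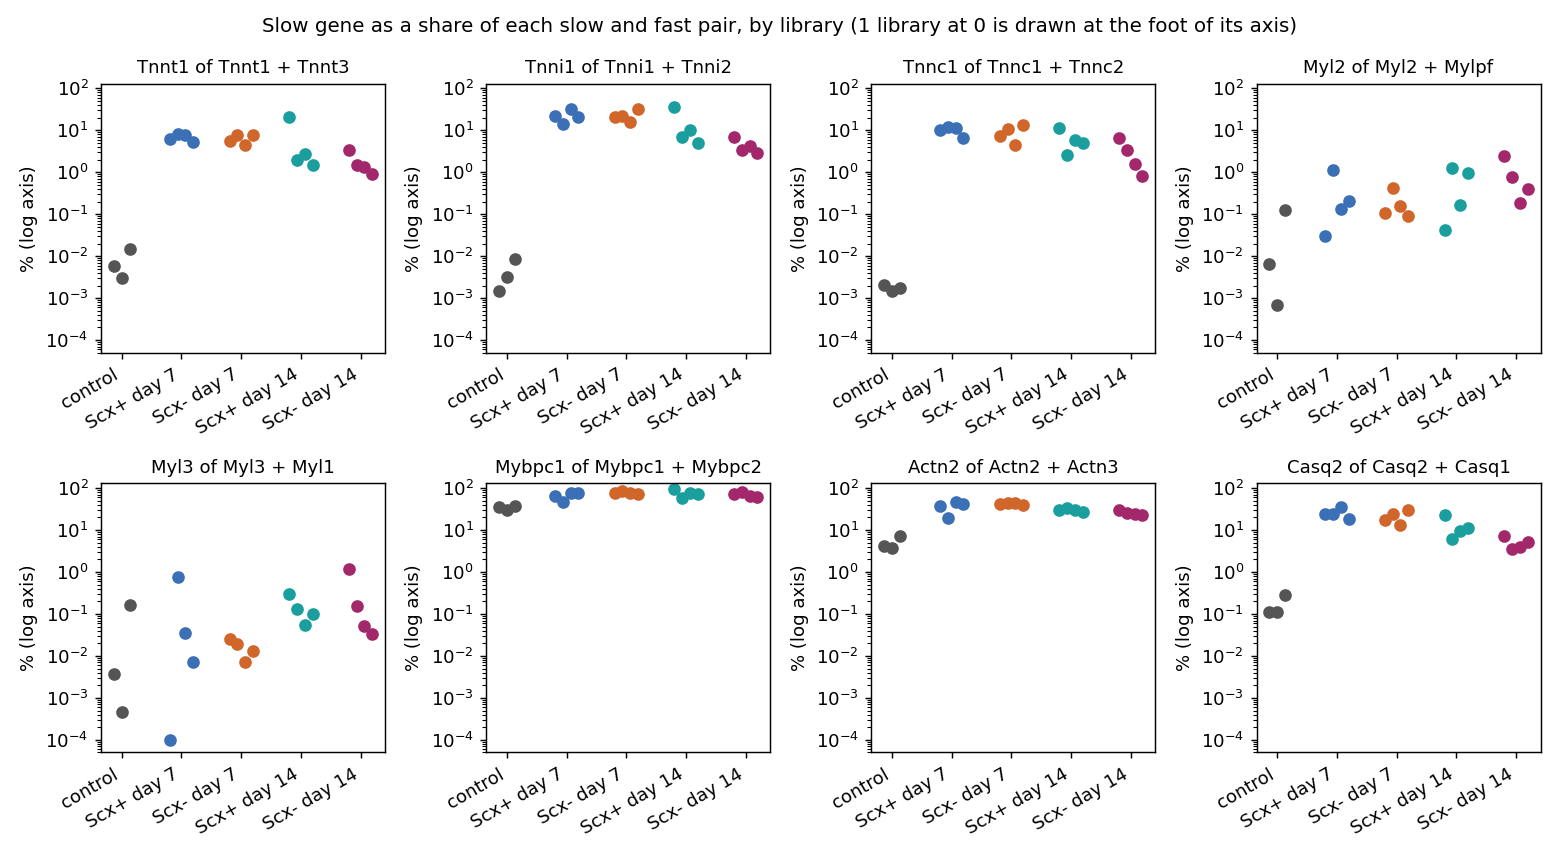
The gene listed as slow, as a percentage of the sum of its pair, in 8 panels on log axes with 1 point per library. Of these genes, Actn2 is found in all fibres, and Mybpc1 was high in controls as well. In the panels of Tnnt1, Tnni1, Tnnc1, Mybpc1, Actn2 and Casq2 every stimulated library lies above the 3 controls, and in those of Myl2 and Myl3 the groups overlap; Scx+ day 7 replicate 1, at 0 for Myl3, is drawn at the foot of its panel.

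Neither genotype nor day passed in such ratios, where the tests had little room to pass. Exact permutation of 4 against 4 libraries cannot give a p below 0.0286. After adjustment over 16 tests, 1 separated pair alone could not pass, so the absence of a call does not show equal ratios. Between Scx- and Scx+ within a day, 0 of 16 tests had an adjusted p under 0.05, and the smallest was 0.457. The smallest unadjusted p was 0.0571, for Casq2/Casq1 at day 14 (exact permutation). The mean log2 ratio of Tnni1 to Tnni2 was -1.81 ± 0.54 in Scx- and -1.84 ± 0.60 in Scx+ at day 7, and -4.55 ± 0.59 and -3.0 ± 1.5 at day 14 (SD, n = 4 each). Between the days, added after the values were seen, 0 of 16 passed (smallest adjusted p = 0.0914). In Scx-, 5 pairs did not overlap between days: Tnnt1/Tnnt3, Tnni1/Tnni2, Actn2/Actn3 and Casq2/Casq1 lay lower at day 14, with differences of -2.05, -2.74, -1.10 and -2.37, and Myl3/Myl1 was higher by 2.72 (exact permutation p = 0.0286 each). In Scx+ 0 pairs were separated between days. For Tnni1/Tnni2, Tnnt1/Tnnt3, Tnnc1/Tnnc2 and Casq2/Casq1 this rested on day 14 replicate 1 alone. For Tnni1/Tnni2 that library was at -0.85 and the others of its group at -3.76, -3.14 and -4.23. The Scx+ day 7 libraries were at -1.79, -2.56, -1.09 and -1.92. The remaining pairs overlapped between days in Scx+ without that library as well. A difference between genotypes in the change from day 7 to day 14 was not tested for these ratios.

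Between Scx- and Scx+ mice all 40 genes had a positive log2 fold change at both days, and 0 passed the test. At day 7 the median was 2.17, from 0.67 for Myl3 to 2.91 for Sln, beside 0.02 over all tested genes. At day 14 it was 1.90, from 0.28 for Tnni1 to 2.86 for Pvalb, beside 0.02. Of all tested genes 0.433% rose and 0.337% fell at day 7, and 0.108% rose and 0.409% fell at day 14 (limma). On the deposited scale the day 14 split of all genes was 956 lower and 37 higher, in place of 68 and 18, and 0 of the 40 passed on either scale. At an unadjusted p under 0.05 there was 1 of the 40 at day 7 (Smpx, 2.34 ± 1.08 SE, adjusted p = 0.667) and 0 at day 14. Of all 16619 tested genes 1207 and 2429 lay under that level. For 0 of the 40 did the genotypes' libraries not overlap, where 3.71% of all genes lay higher and 4.18% lower without overlap at day 7, and 1.87% and 2.94% at day 14. Most of the members move together from library to library, so 40 positive signs are not 40 independent observations. All 10 tendon markers were negative at both days (medians -2.32 and -1.55), with 4 and 3 called lower, Scx among them. Adipocyte markers were positive for 6 of 8 at day 7 and 8 of 8 at day 14 (medians 0.40 and 1.47), with 0 called. The part of either list in the members' difference was not tested.

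Single libraries set the size of these differences as well. The day 7 median was 1.01 without Scx+ replicate 2, and the day 14 median was 0.94 without Scx+ replicate 1 and 0.74 without Scx- replicates 1 and 2 together, the 2 libraries with the highest share of muscle RNA among the stimulated ones. Acta1, for example, was at 2.43 ± 1.39 (SE, adjusted p = 0.782) at day 7 and 2.11 ± 1.39 (adjusted p = 0.472) at day 14. With the mean of the 39 other fibre genes as a covariate, the medians were 0.08 and -0.06. Again 0 passed, where 0.325% and 0.259% of all genes did in that fit. That covariate takes out the common muscle level by construction, so medians near 0 follow from the fit. The cause of the genotype difference was not tested. Between the 2 genotype effects, tested as an interaction, 0 of 40 differed (limma, adjusted p of 0.99993 for each), where 0.0181% of all genes did. The median was -0.31, from -1.85 for Tnni1 to 1.34 for Pvalb. At an unadjusted p under 0.05 there were 0 of the 40, and 721 of all 16619 tested genes.

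Day 14 values were higher than day 7 values for 40 of 40 genes in Scx+ (median 2.34) and 37 of 40 in Scx- (median 2.01), with 0 passed in either. Of all tested genes 0.012% rose and 0.0181% fell in Scx+, and 1.4% and 3.86% in Scx-. At an unadjusted p under 0.05 there were 6 of 40 in Scx+ and 5 in Scx-, where 1758 and 3634 of all 16619 tested genes lay so. In Scx+ the range ran from 0.98 for Xirp2 to 4.01 ± 1.62 for Sln (SE, adjusted p = 0.381), and in Scx- from -0.54 for Tnni1 to 4.72 for Myl3. Libraries of the days did not overlap for 2 genes in Scx+ (Myl3 and Sln) and 4 in Scx- (Ckm, Myl3, Mybpc2 and Pvalb), all higher at day 14, where 3.78% and 4.09% of all genes lay so; 0 lay lower without overlap, where 6.11% and 8.37% of all genes did. Pvalb in Scx-, at 3.66 ± 1.38 (SE), had an adjusted p of 0.136, and of 0.0283 without Scx+ day 14 replicate 1.

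Most of the 40 genes kept a near constant ratio to each other while their levels moved. Over the 16 stimulated libraries, the SD of a gene's log2 value had a median of 2.47. Taken relative to the median of the other members in the same library, the SD had a median of 0.43, and 25 of 40 genes lay under 0.5. The steadiest was Tnnt3 (0.19), with Tnni2 (0.23), Ldb3 (0.25) and Acta1 (0.28) next. Those that departed most were Myl3 (1.99), Myl2 (1.49) and Tnni1 (1.43), followed by Sln (1.41), Tnnt1 (1.35), Casq2 (1.35), Tnnc1 (1.32) and Pvalb (1.21). The libraries share this common part, so these SDs describe the samples and have no p.

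Relative to the other fibre genes, some members were higher and some lower than in controls. With the mean log2 value of the 39 fibre genes outside the set as a covariate, 12 of 40 were lower and 12 higher at Scx+ day 7, 14 and 13 at Scx- day 7, 7 and 13 at Scx+ day 14, and 7 and 13 at Scx- day 14. In that fit 12.1%, 18.4%, 15.8% and 16.1% of all tested genes were lower and 17.1%, 25%, 21.3% and 22.8% higher. The 7 of 40 lower in each day 14 comparison were thus near the share of all genes. Higher in all 4 were Tnnt1, Tnni1, Tnnc1, Myl2, Mybpc1, Actn2, Casq2, Sln, Neb, Des, Xirp2 and Klhl41. Lower in all 4 were Atp2a1, Jph1, Pygm, Ampd1 and Tnni2. Xirp2 was at 3.72, 3.51, 2.26 and 2.04, and Tnni1 at 10.86, 11.19, 10.51 and 9.20. In Scx- from day 7 to day 14, 4 genes were lower in that fit (Casq2, Des, Klhl41 and Tnni1) and 5 higher (Actn3, Atp2a1, Ckm, Myoz1 and Pygm), against 3.15% and 0.891% of all genes. The covariate is itself made of muscle genes that differ between groups, so these values are relative to other muscle genes. The summed share of those 39 genes was 9.41 to 13.0% in controls and 0.0259 to 8.99% in stimulated libraries, without overlap. The comparisons with control in this fit thus reach past any range that both kinds of library share.

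The other genes of these fibres were counted in the same way. Of 39 fibre genes outside the set, 35 fell at Scx+ day 7, 25 at Scx- day 7, 26 at Scx+ day 14 and 8 at Scx- day 14, and 0 rose, beside 31, 23, 23 and 0 of the 40 members. The difference between the lists was not tested. Among the 39 the fast myosin Myh4, which fell in all 4 groups, was at 3880.0 to 6861 kilounits in the controls and 2.44 to 390.2 in stimulated libraries, while Myh1, of another fast fibre type, was at 402 to 428 and 1.17 to 3219 kilounits. Of 11 genes of embryonic or regenerating fibres (Myh3, Myh8, Actc1, Tnnt2, Myl4, Chrng, Chrna1, Myod1, Myog, Mymk, Mymx), 2 rose at Scx+ day 7, 7 at Scx- day 7, 4 at Scx+ day 14 and 5 at Scx- day 14, where 33.8%, 32.3%, 30.9% and 25.5% of all tested genes rose, and Actc1, the cardiac and fetal actin, fell in each Scx+ group. Tnnt2, the cardiac and embryonic troponin T, and Chrng, the fetal acetylcholine receptor subunit, rose in all 4. At Scx+ day 14 Myh3 and Chrna1 were the others that rose, and at Scx- day 14 Myh3, Chrna1 and Mymx. Their summed share was 0.0188 to 0.0354% in controls, 0.00181 to 0.220% and 0.0316 to 0.270% in Scx+ and Scx- at day 7, and 0.0314 to 0.102% and 0.0300 to 0.139% at day 14. Myh3, embryonic myosin, was at 187, 182 and 517 units in the controls and 90.4 to 39769 in stimulated libraries. The part of such fibres in the rise of Tnni1, Tnnc1 and Tnnt1 was not tested.

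The authors' deposited table of comparisons lists 36 of the 40 genes, without Sln, Myl3, Pvalb and Ryr1, among 15951 genes. At an adjusted p under 0.05 the authors' deposited table has 28 lower and 3 higher at Scx+ day 7, where 29.1% and 32.5% of its genes are. It has 26 lower and 4 higher at Scx- day 7, where 26.1% and 31.1% of the genes in the authors' deposited table are, and 26 lower and 4 higher at Scx+ day 14, where 23.3% and 26.7% are. At Scx- day 14 the authors' deposited table has 16 lower and 4 higher, where 13.8% and 18.2% are. Between genotypes it has 0 at either day, where 2.34% and 2.39% at day 7 and 0.727% and 0.382% at day 14 of the genes in the authors' deposited table are lower and higher. Between days the authors' deposited table has 0 in Scx+, against 3.08% and 1.91%, and 0 lower and 12 higher in Scx-, against 5.86% and 3.18%. For Tnni1 the authors' deposited table gives log2 fold changes of 7.35, 8.28, 7.19 and 7.87 against control, and for Atp2a1 the authors' deposited table gives -6.55, -5.01, -3.93 and -2.15, in the order Scx+ day 7, Scx- day 7, Scx+ day 14 and Scx- day 14. The counts of the authors' deposited table and those of limma differ most at Scx- day 14, 16 lower against 0, and in Scx- between the days, 12 higher against 0.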

How the data were processed

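The labels describe total RNA of plantaris tendon, purified with a column kit and DNase I, with 250 ng per library made into standard Illumina libraries. Per the submitters' processing notes, FastQC, STAR, DESeq2 and the mouse build mm10 were used, with no versions or roles named; strand and counting rules are not given in the sources used here, and 22 of the 40 genes overlap an annotated gene on the opposite strand. The table of values deposited by the authors gives for each gene and library a scaled signal that is not whole (1.65 to 2.38% of values lie within 0.01 of a whole number), so no count model was used, depth is unknown and no counting interval is given. The authors' deposited table of comparisons holds log2 fold changes and adjusted p-values, and its model is not described.

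Groups came from the labels of genotype, tamoxifen and time. Libraries were rescaled by medians of ratios, from 13703 genes with a value above 0 in all 19 (factors 0.844 to 1.10) and taken as log2(value + 2), which understates changes of low genes. The test took the 16619 of 24972 genes that reached 10 in 3 or more libraries; 4029 of the rest were at 0 everywhere. A single limma 3.58.1 fit (R 4.3.3; trend and robust moderation) held all 5 groups, with 9 contrasts and Benjamini-Hochberg adjustment over all tested genes at 0.05, after tests on simulated data. Each value is a difference on that log2 scale. Ratios of slow to fast genes were tested by exact two-sided permutation. Positions are from GENCODE's mouse annotation of GRCm38, and promoters from RefSeq for GRCm38.p6. The members, the gene lists and the tests were chosen with earlier results of these data known. The rule for genes given in every library took the highest gene of each role, the 8 pairs, the highest and lowest fold change of each comparison, genes called where fewer than 6 were, and the 3 that departed most from the others; Mb and Des fall outside it and were added after their values were seen. Alternatives were other scalings, pseudocounts, filters, moderation, weights, a replicate block, fits of single comparisons, a fibre gene covariate and libraries left out. Python 3.11.15, numpy 2.4.6, pandas 2.3.3, scipy 1.17.1 and matplotlib 3.10.9 were used.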

Additional observations from a re-analysis of the deposited data

Results flagged for a closer look

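Sln, the gene of sarcolipin, stood out in 1 library: Scx+ day 14 replicate 4 held 14410.4 units, while the other libraries of its group held 1071, 1455 and 859. The gap to the nearest library was 0.956 of the group's range, above the critical value of Dixon's test for 4 libraries. For Sln the test used the rescaled signal and not its log2, on which the gap is a smaller part of the range. In all, 128 groups of 4 libraries over 23 genes, 8 ratios and the member share were looked at, and 1 was flagged. Chance marks about 1 in 20 groups, so this single flag is fewer than chance would mark. The same library had a member share of 7.53%, the highest of its group.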

How the results depend on the processing

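Of the counts of members called, group means of the share and medians, 355 alternative values stayed within 1.5 times the main count or 1 SD and 17 did not. Of the single genes and ratios, 3791 kept direction and side of the threshold, 87 became called, 73 lost the call and 50 turned sign; the cause was not tested. The number of members called (lower and higher together) was 16 at Scx+ day 14 and 17 at Scx- day 7 with array quality weights. At Scx- day 14 it was 5 with library totals, 17 with that comparison's groups alone and 20 with the fibre gene covariate. The fit of those groups alone takes its spread from them, where the main fit shares 1 spread over all 5 groups. The covariate gave 9 in Scx- between days. With 1 library left out the counts ran over 31 to 36 at Scx+ day 7, 18 to 31 at Scx- day 7, 17 to 32 at Scx+ day 14, 3 to 7 at Scx- day 14 and 0 to 1 in Scx- between days, where Myl3 passed without control replicate 3 or Scx- day 14 replicates 3 or 4, and Pvalb without Scx+ day 14 replicate 1. The genotype medians ran over 1.01 to 3.02 at day 7 and 0.94 to 2.59 at day 14. With the covariate, which takes out the common muscle level by construction, signs turned for log2 fold changes against control. At Scx+ day 7 these were Acta1 0.31, Ttn 0.50, Xirp2 3.72, Mb 1.41, Actn2 3.06, Des 2.43 and Sln 5.27. At Scx+ day 14 these were Acta1 0.58, Mylpf 0.34, Ttn 0.32, Xirp2 2.26, Mb 2.88, Actn2 3.07 and Des 1.67. At Scx- day 7 these were Acta1 0.41, Mylpf 0.13, Ttn 0.48, Xirp2 3.51, Mb 1.61, Actn2 3.16 and Des 2.14. At Scx- day 14 these were Acta1 0.62, Mylpf 0.12, Ttn 0.26, Xirp2 2.04 and Des 1.41. It also turned Scx- against Scx+ at day 7 Myl3 -0.55, Scx- against Scx+ at day 14 Tnni1 -1.32 and Scx+ day 14 against day 7 Xirp2 -1.47. With array quality weights the sign turned for Sln (Scx+ day 7 against control), to 0.11, Actn2 (Scx- day 14 against control), to -0.12, Tnni1 (Scx- against Scx+ at day 14), to -0.22 and Xirp2 (Scx+ day 14 against day 7), to -0.79. With library totals the sign turned for Xirp2 (Scx- day 14 against control), to 0.10. Without Scx- day 14 replicates 1 and 2 together the sign turned for Mb (Scx- day 14 against control), to -0.15, Actn2 (Scx- day 14 against control), to -0.91 and Tnni1 (Scx- against Scx+ at day 14), to -0.93. With a pseudocount of 10 the sign turned for Myl3/Myl1 ratio (Scx+ day 14 against day 7), to -0.12. Leaving out 1 library gave ranges that cross 0, -2.19 to 0.17 for Sln (Scx+ day 7 against control), -0.89 to 0.26 for Xirp2 (Scx- day 14 against control), -0.026 to 0.97 for Actn2 (Scx- day 14 against control), -0.19 to 0.73 for Tnni1 (Scx- against Scx+ at day 14), -0.37 to 2.25 for Pvalb (genotype by day), -0.40 to 2.62 for Xirp2 (Scx+ day 14 against day 7), -0.21 to 0.28 for Tnni1/Tnni2 ratio (Scx- against Scx+ at day 7), -0.27 to 0.017 for Tnnt1/Tnnt3 ratio (Scx- against Scx+ at day 7) and -0.52 to 0.058 for Tnnc1/Tnnc2 ratio (Scx- against Scx+ at day 7). Libraries of different groups with the same replicate number were not more alike by median. Their deviations had a median correlation of -0.0018 (36 pairs, 7 over 0.1, from -0.429 to 0.351), against 0.011 for different numbers (108 pairs). With so few libraries per group these correlations cannot exclude a pairing by number. With the replicate number as a block there were 29 lower and 3 higher at Scx+ day 7, 15 lower and 3 higher at Scx- day 7, 17 lower and 3 higher at Scx+ day 14, 0 lower and 3 higher at Scx- day 14, and 0 for genotype, interaction and days. Read depth behind the scaled signal is unknown, so values near the pseudocount, such as slow troponins in controls, carry an error that these files cannot give.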
